A study of Mus musculus with 21 samples.

Results

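The genes described here are 10 members of the machinery that decides whether a cell leaves the first gap phase of the cell cycle: the INK4 inhibitor genes Cdkn2a, Cdkn2b and Cdkn2c, the KIP inhibitor gene Cdkn1b, the D-type cyclin genes Ccnd1, Ccnd2 and Ccnd3, the kinase genes Cdk4 and Cdk6, and the retinoblastoma gene Rb1. They were chosen by name, and each symbol matched a single Ensembl identifier, so that 10 of the 55487 genes in the count files were members. Their RNA was measured by bulk RNA-seq of spleen T cells in 21 mouse libraries of 4 groups. There were 5 libraries of wild type mice (WT) and 5 of mice of the genotype Tet2-/-Tet3flx/flxCD4cre (DKO). DKO T cells recovered from CD45.1+ recipients after a first transplantation (TX1) gave 4, and those that had been passed on to a further recipient after expanding in another (TX2) gave 7. By label, all DKO, TX1 and TX2 cells carry the Tet2 deletion in every cell and a Tet3 deletion that rests on a Cre driven by CD4. WT and DKO cells were sorted as live cells positive for CD4 and TCRb and negative for CD25 and for the aGalCer-loaded CD1d tetramer, whereas transferred cells were sorted as live CD45.2+, CD45.1- cells. The gate and the transfer therefore cannot be told apart. All WT libraries are male. DKO replicate 2, TX1 replicate 3 and TX2 replicates 5 to 7 are female. DKO replicates 4 and 5 are labelled young, and the labels give no age in days or weeks for any animal. The labels number biological replicates without saying which animals they came from, so p-values measure the spread between these libraries. TX2 libraries of a shared receptor are not independent of each other.

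Each library held between 26918548 and 30730877 reads on genes. Levels are given in CPM, the count of a gene relative to all gene reads of its library, scaled by TMM, a normalisation between libraries. Tet3 was at 172 to 221 CPM in WT, 86.8 to 106 in DKO, 72.1 to 91.5 in TX1 and 55.9 to 89.8 in TX2. Tet2 was at 35.9 to 55.3 CPM in WT, 39.2 to 53.4 in DKO, 28.5 to 68.4 in TX1 and 14.9 to 29.4 in TX2, so that Tet2 RNA overlapped between DKO and WT and does not bear out the labelled loss. These counts cover the whole gene, and which exons are deleted is not in the labels, so they check the genotype only in part. Cd3e, a subunit of the T cell receptor complex, was at 169 CPM or more in every library. Cd4 was at 1063 CPM or more in every WT and DKO library and at 1025 CPM in TX1 replicate 1. It was at 0.350, 27.1 and 0.131 CPM in TX1 replicates 2, 3 and 4 and at 2.25 CPM or less in TX2, so the defining marker of the labelled cell type was nearly absent from most transferred libraries. The labels call the transferred cells ex CD4. Cd8a and Cd8b1, which mark CD8 T cells, summed to 0.411 CPM or less in every transferred library, and Trdc, which marks gamma-delta T cells, was at 0.137 CPM or less there. Markers of other cells also moved with the groups. Of the 2 NK cell markers Klrb1c was at 1.95 to 5.09 CPM in WT, 25.9 to 48.1 in DKO, 65.4 to 319 in TX1 and 18.9 to 137 in TX2, while Ncr1 was at 0.308 CPM or less in TX1. Of the 2 plasma cell markers Sdc1 was at 0.808 CPM or less in WT and at 27.3 to 256 in TX1, while Jchain was at 1.78 CPM or less in TX1. Summed neutrophil markers were at 0 to 50.2 CPM in WT, 2.75 to 130.5 in DKO, 0.924 or less in TX1 and 0 to 75.9 in TX2, and summed macrophage markers at 2.11 to 131, 3.11 to 54.3, 0.245 to 1.72 and 2.28 to 67.0 CPM. Their part in the results was not tested.

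Progression from the first gap phase into DNA synthesis is set by cyclin-dependent kinases. D-type cyclins bind CDK4 and CDK6, and the complexes phosphorylate RB, which then releases E2F factors that switch on genes of DNA replication. INK4 proteins bind CDK4 and CDK6 and keep cyclin D away, whereas the KIP protein p27, the product of Cdkn1b, blocks cyclin E with CDK2 and is held by cyclin D complexes. Resting T cells keep high p27. It is destroyed through the ubiquitin ligase subunit SKP2 after activation, when cyclin D2, cyclin D3 and CDK6 serve as the main early partners in lymphocytes.

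The transferred libraries were dominated by single T cell receptor sequences, which act as natural tags of a clone. The most abundant alpha chain (TRA) sequence held 75.4 to 95.7% of TRA reads in the 11 transferred libraries, 77.9% in DKO replicate 2, 3.86 to 12.5% in the other DKO libraries and 1.66% or less in WT. There were 5 such clones among the transferred libraries. TX2 replicates 1 to 4, all male, shared a receptor, and TX2 replicates 5 to 7, all female, shared another, which was also that of TX1 replicate 3. Clone and sex therefore cannot be told apart in TX2. The junctions of these receptors are shown because several members differed between them. They are deposited clonotype sequences, read 5′ to 3′, with the bases between the V and J segments in capitals.
TX2 replicates 1 to 4, TRA: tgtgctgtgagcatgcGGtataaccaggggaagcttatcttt
TX2 replicates 1 to 4, TRB: tgtgccagcagtgatacagaagtcttcttt
TX1 replicate 3 and TX2 replicates 5 to 7, TRA: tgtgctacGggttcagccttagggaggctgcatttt
TX1 replicate 3 and TX2 replicates 5 to 7, TRB: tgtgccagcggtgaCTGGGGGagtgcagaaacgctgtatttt
The first pair of junctions joins TRAV9N-3 to TRAJ23 and TRBV13-3 to TRBJ1-1, and in the TRB junction all bases were assigned to a V or J segment. The second joins TRAV8N-2 to TRAJ18 and TRBV13-2 to TRBJ2-3.

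In DKO cells Cdkn2c, Cdk4 and Cdk6 were higher than in WT, while Cdkn1b, Ccnd2 and Ccnd3 were lower. After the second transfer Cdk4 rose again and Cdkn1b fell again relative to DKO, Cdkn2a and Cdkn2b rose, and Rb1 fell. In DKO against WT 6 of the 8 members tested were called, 3 higher and 3 lower, where 43.4% of the 13700 genes tested were called in either direction, 22.7% higher and 20.7% lower. The groups did not overlap in 34.2% of these genes. In TX1 against DKO 3 of 9 members were called, 2 higher and 1 lower, beside 19.7% of 13954 genes, 11.7% higher and 7.97% lower, and 18.9% of these genes had no overlap. In TX2 against DKO 5 of 10 were called, 3 higher and 2 lower, beside 51.7% of 14034 genes, 25.6% higher and 26.1% lower, a share near that of the members, and 33.3% of these genes had no overlap. In TX2 against TX1 edgeR called 0 of 10 members beside 0.0431% of 13907 genes, 0.0216% higher and 0.0216% lower. In that comparison 2 members, Cdkn2b and Ccnd1, had an unadjusted p under 0.05, and DESeq2 called 1, Ccnd1. A gene was called where the adjusted p of edgeR's quasi-likelihood test was under 0.05. Only genes that passed a filter on low counts were tested. Cdkn2a and Cdkn2b did not pass it in DKO against WT. Cdkn2a against DKO, and Cdkn2b in TX2 against DKO, passed with the help of higher counts in transferred libraries, so these calls are not independent of the filter. TX1 and TX2 were both compared with the same DKO libraries, and DKO is also the group set against WT. In bulk RNA a lower level can reflect fewer cells of a type or less RNA per cell, which cannot be told apart.

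**Figure D1:**
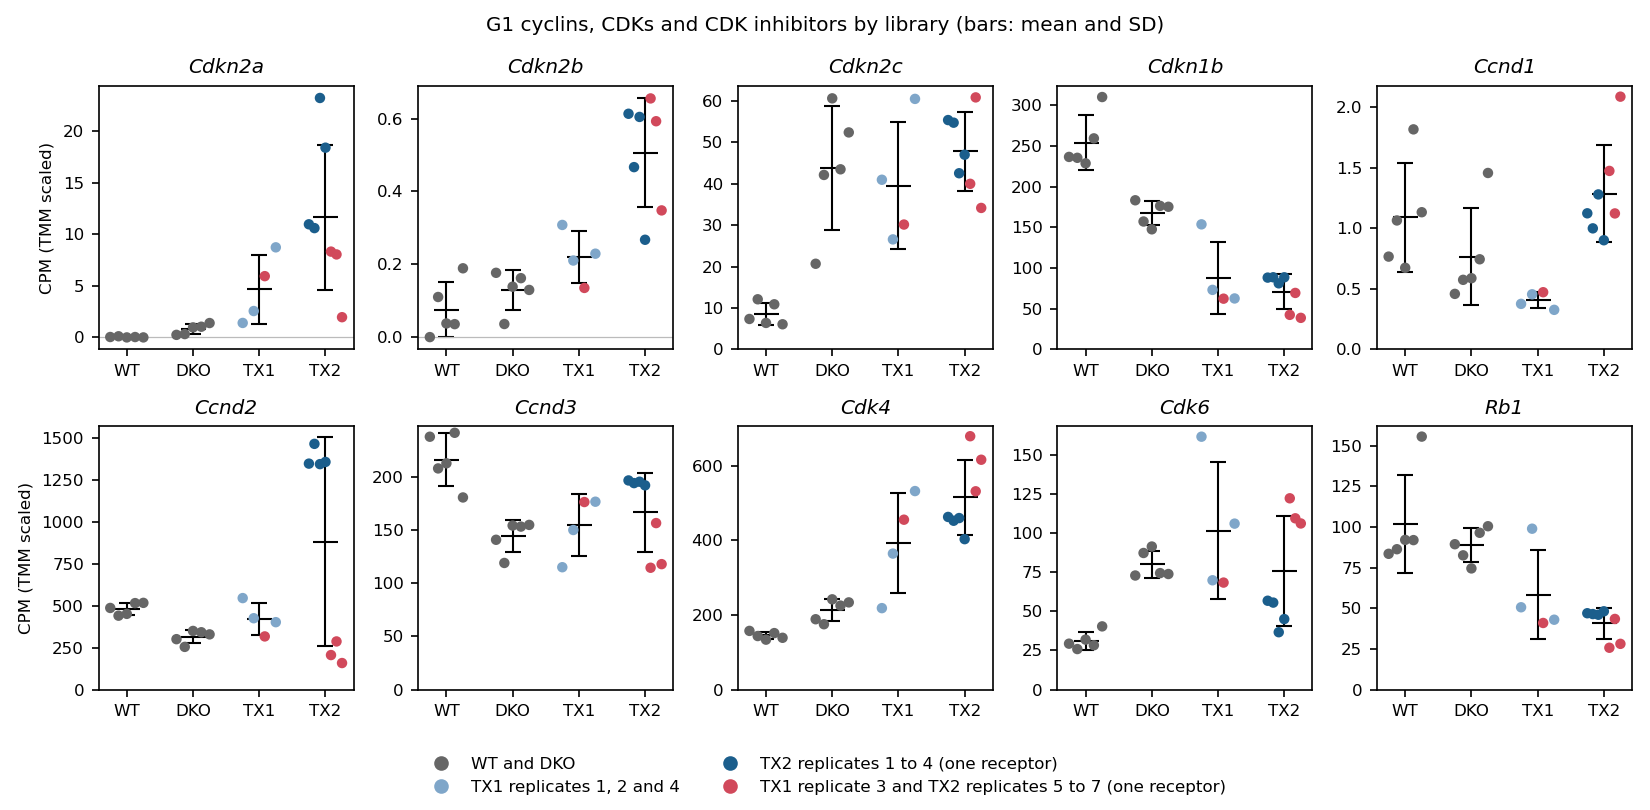
Level of each member in every library, in CPM on a linear axis, by group; horizontal and vertical bars give the group mean and SD, and colours mark the receptor of transferred libraries. Cdk4 lies between 134 and 157 CPM in WT and between 404 and 680 in TX2, and Ccnd2 separates TX2 replicates 1 to 4 from replicates 5 to 7.

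Cdkn2a encodes p16INK4a, which binds CDK4 and CDK6, and, from another first exon and reading frame, p19ARF, which binds the p53 inhibitor MDM2. The deposited count joins both kinds of transcript and cannot separate them. The gene spans chr4:89274471-89294653 on the minus strand of GRCm38. Its pair of promoters, as annotated by RefSeq on GRCm38.p6, is shown because the count covers transcripts from both, with CpG sites, the sites where DNA is methylated and where TET enzymes act, in capitals.
Cdkn2a upstream promoter, chr4:89294570-89294869, minus strand: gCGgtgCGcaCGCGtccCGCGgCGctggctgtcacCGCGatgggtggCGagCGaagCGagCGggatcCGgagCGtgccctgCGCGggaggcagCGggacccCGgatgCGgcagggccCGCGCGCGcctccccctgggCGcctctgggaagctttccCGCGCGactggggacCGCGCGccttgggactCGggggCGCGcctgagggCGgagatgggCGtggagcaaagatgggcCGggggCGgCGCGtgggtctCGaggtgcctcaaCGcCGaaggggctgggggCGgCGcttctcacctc
Cdkn2a downstream promoter, chr4:89282143-89282442, minus strand: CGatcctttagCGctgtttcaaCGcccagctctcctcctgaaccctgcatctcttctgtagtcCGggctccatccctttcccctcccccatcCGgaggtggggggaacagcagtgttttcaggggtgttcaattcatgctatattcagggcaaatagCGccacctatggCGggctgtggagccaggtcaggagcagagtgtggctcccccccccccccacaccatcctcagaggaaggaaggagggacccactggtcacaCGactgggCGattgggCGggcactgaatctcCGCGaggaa
The upstream window, which lies at the first exon of the ARF transcript, holds 45 CpG sites, and the downstream window, at the first exon of the p16 transcript, holds 12. The median over 32851 promoter windows of 300 bases, 250 before to 50 after each start, was 7. No methylation was measured here.

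Cdkn2a was almost silent in WT and appeared step by step. It had 1, 3, 0, 1 and 0 reads in WT replicates 1 to 5, where 3 reads amount to 0.105 to 0.111 CPM. It had 7, 9, 28, 32 and 43 reads in DKO replicates 1 to 5, which is 0.247, 0.323, 0.969, 1.04 and 1.39 CPM. No DKO library overlapped WT. The gene did not pass the filter on low counts in that comparison, so it has no value in the fit over all genes. The difference in mean, 0.794 ± 0.492 (SD, n = 5) against 0.0368 ± 0.0450 CPM (SD, n = 5), gave a two-sided exact permutation p of 0.00794, the smallest this design allows. Without the filter, edgeR's quasi-likelihood test gave a log2 fold change of 4.29 ± 0.72 (SE) with an adjusted p of 0.000376, a size that depends on the prior count. Levels in TX1 replicates 1 to 4 were 1.40, 2.56, 5.94 and 8.74 CPM, all above the highest DKO library. In TX2 the lowest, median and highest were 1.96, 10.6 and 23.2 CPM, again all above DKO. Cdkn2a rose in TX1 against DKO by 2.57 ± 0.68 (log2, SE; adjusted p = 0.0299) and in TX2 against DKO by 3.84 ± 0.64 (adjusted p = 0.000441). In TX2 against TX1 the difference was 1.31 ± 0.64 (adjusted p = 0.261), and the groups overlapped.

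Cdkn2b, which encodes the INK4 protein p15 and lies beside Cdkn2a at chr4:89306299-89311039, was near the limit of counting in all groups. It had 0 to 5 reads in WT and 1 to 5 in DKO, or 0.0744 ± 0.0755 and 0.128 ± 0.0550 CPM (SD, n = 5 each), and the groups overlapped (exact permutation p = 0.230). In TX1 it had 9, 6, 4 and 7 reads, overlapping DKO (exact permutation p = 0.0635). In TX2 it had 8 to 20 reads, with a lowest, median and highest of 0.267, 0.593 and 0.655 CPM. All 7 TX2 libraries lay above all DKO libraries, and Cdkn2b rose by 1.92 ± 0.38 (log2, SE; adjusted p = 0.00121). It did not pass the filter on low counts in DKO against WT or TX1 against DKO. In TX2 against DKO it passed through the TX2 libraries, so that call is not independent of the filter. At a mean of 0.507 CPM in TX2 Cdkn2b stayed far below Cdkn2c, at 47.8.

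Cdkn2c encodes the INK4 protein p18, a known brake on T cell proliferation. Per kilobase of exons it was the highest of Cdkn2a, Cdkn2b and Cdkn2c in 20 of 21 libraries. Its levels in WT replicates 1 to 5 were 7.36, 12.1, 6.41, 10.9 and 6.08 CPM, and those in DKO were 20.7, 42.1, 60.6, 43.5 and 52.4 CPM. Every DKO library was above every WT library and DKO replicate 1 was the lowest of its group. Cdkn2c rose by 2.37 ± 0.30 (log2, SE; adjusted p = 0.000161), the largest difference among the 8 members tested there. It was at 41.0, 26.6, 30.1 and 60.5 CPM in TX1 and at a lowest, median and highest of 34.2, 47.0 and 60.8 CPM in TX2. Both transferred groups overlapped DKO, with differences of -0.13 ± 0.34 (adjusted p = 0.816) and 0.10 ± 0.23 (adjusted p = 0.728).

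Markers of dividing cells were higher in DKO than in WT, as was Cdkn2c. The summed level of Mki67, Top2a and Ccnb2 was 77.5 to 146 CPM in WT, 394 to 1135 in DKO, 333 to 1321 in TX1 and 808 to 1161 in TX2. Within DKO the library with the lowest Cdkn2c, replicate 1, also had the lowest marker sum, and replicate 3 the highest of both. In TX1 the lowest Cdkn2c was in replicate 2 and the lowest marker sum in replicate 1, and in TX2 they were in replicates 7 and 3. Mki67 was the gene whose log2 level was most like that of Cdkn2c over the 21 libraries among 9852 genes with a mean of at least 5 CPM (Pearson r = 0.954), followed by Hmgb2 (0.949) and Rnpep (0.948). The libraries share groups and clones, so these correlations are a description. The part of dividing cells in the Cdkn2c result was not tested.

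Cdkn1b, which encodes p27, ran the other way. It was at 237, 236, 229, 260 and 310 CPM in WT replicates 1 to 5 and at 183, 157, 148, 177 and 175 CPM in DKO. The groups did not overlap, and Cdkn1b fell by 0.58 ± 0.10 (log2, SE; adjusted p = 0.00122), a call lost when all groups shared 1 fit (adjusted p = 0.0844). In TX1 replicate 1 it was at 154 CPM, inside the DKO range, while TX1 replicates 2 to 4 were at 73.3, 62.4 and 62.7. In TX2 the lowest, median and highest were 38.9, 81.3 and 88.8 CPM, all below DKO. It fell by 0.92 ± 0.27 in TX1 against DKO (adjusted p = 0.0408) and by 1.26 ± 0.21 in TX2 against DKO (adjusted p = 0.000471). Parp4 (r = 0.982), Lrig2 (0.974) and Ypel3 (0.971) had the levels most like those of Cdkn1b.

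Set side by side per kilobase of exons, how the INK4 genes stood to Cdkn1b turned on Cdkn2d, the INK4 gene of p19INK4d, which is not among the 10 members. Cdkn2a, Cdkn2b and Cdkn2c summed to 2.40 to 4.68 CPM per kilobase in WT, 8.04 to 23.5 in DKO and 14.6 to 36.1 in TX2. Cdkn1b was at 50.3 to 68.2, 32.5 to 40.3 and 8.54 to 19.5 in these groups. The sum of the 3 was above Cdkn1b in 0 of 5 WT, 0 of 5 DKO and 7 of 7 TX2 libraries and in TX1 replicates 3 and 4. Cdkn2d itself was at 29.6 to 66.0 CPM per kilobase in WT, 47.4 to 70.0 in DKO, 10.98 to 36.9 in TX1 and 15.2 to 49.9 in TX2. With it added, the sum of all 4 was above Cdkn1b in 4 of 5 WT libraries and in every DKO, TX1 and TX2 library, so the change of order was seen only with Cdkn2d left out. The same libraries stood on each side when the longest transcript was used as length. Cdkn2c made up over 50% of the sum of the 3 in 6 TX2 libraries, while Cdkn2a was the larger part in TX2 replicate 3. These ratios have no test, and the sum with Cdkn2d was added after the data were seen.

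**Figure D2:**
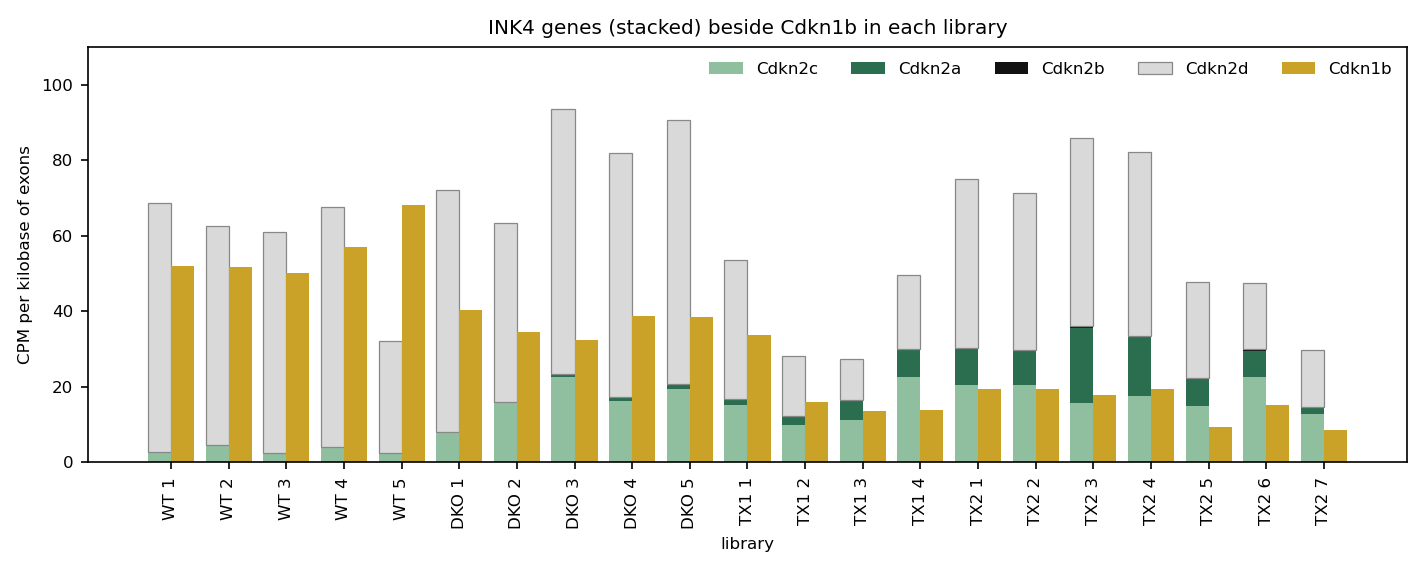
INK4 genes stacked (left bars), with Cdkn2d on top in grey, and Cdkn1b (right bars) in each library, in CPM per kilobase of exons on a linear axis from 0. Without the grey part the stack passes Cdkn1b in TX1 replicates 3 and 4 and in all 7 TX2 libraries, and with it in all libraries but WT replicate 5.

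Ccnd2 encodes cyclin D2, which is induced early in activated lymphocytes, and was the most abundant D-type cyclin gene per kilobase of exons in every library, although in TX2 replicate 7 Ccnd3 was the higher with the longest transcript as length (54.5 against 44.5% of the sum). It was at 487, 441, 452, 516 and 518 CPM in WT replicates 1 to 5 and at 301, 255, 350, 342 and 329 CPM in DKO. The groups did not overlap, and Ccnd2 fell by 0.60 ± 0.10 (log2, SE; adjusted p = 0.000925), a call lost when all groups shared 1 fit (adjusted p = 0.360). In TX1 it was at 546, 426, 317 and 402 CPM, overlapping DKO (0.44 ± 0.16, adjusted p = 0.0877). TX2 fell into separate levels. Replicates 1 to 4 were at 1349, 1467, 1346 and 1359 CPM, above every other library of the series, and replicates 5 to 7 at 206, 287 and 158 CPM, of which 1 overlapped DKO. The difference of all TX2 libraries from DKO, 1.47 ± 0.58, missed the threshold (adjusted p = 0.0504).

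The clone of each TX2 library went with this split, and so did markers of other cells. In replicates 1 to 4 against 5 to 7 the summed markers were at 0.635 to 1.16 against 38.9 to 102 CPM for B cells, 0 to 0.467 against 31.02 to 75.9 for neutrophils, 2.28 to 13.4 against 43.9 to 67.0 for macrophages and 0.273 to 8.85 against 14.4 to 518 for red cells. The summed T cell markers were at 4846 to 6844 against 1910 to 2106 CPM. The part of these in the differences between the clones was not tested. Mean Ccnd2 was 1380 ± 58 CPM (SD, n = 4) in TX2 replicates 1 to 4 and 217 ± 65 CPM (SD, n = 3) in replicates 5 to 7, 6.36-fold lower in the latter. TX1 replicate 3, which carried the receptor of TX2 replicates 5 to 7, was at 317 CPM. With replicates 1 to 4 as the only TX2 libraries, an alternative chosen after the data were seen, Ccnd2 differed from DKO by 2.11 ± 0.10 (adjusted p = 1.002e-06). With replicates 5 to 7 alone the difference was -0.51 ± 0.20 (adjusted p = 0.0559). These p-values compare libraries of a single clone with DKO. No test was made between the clones, since the libraries of a clone are not independent.

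Ccnd3 encodes cyclin D3, the D-type cyclin of developing thymocytes. It was at 238, 208, 213, 241 and 181 CPM in WT and at 141, 119, 154, 153 and 155 CPM in DKO, without overlap, and fell by 0.56 ± 0.11 (log2, SE; adjusted p = 0.00167). In TX1 it was at 115, 150, 176 and 177 CPM, and in TX2 the lowest, median and highest were 115, 192 and 197 CPM. Both groups overlapped DKO, with differences of 0.11 ± 0.15 (adjusted p = 0.634) and 0.19 ± 0.16 (adjusted p = 0.349). TX2 replicates 1 to 4 were at 192 to 197 CPM and replicates 5 to 7 at 115 to 157. The exons of Ccnd3 share 4.11% of their length with Bysl on the other strand, at a mean of 32.7 CPM in DKO and 96.0 in TX2.

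Ccnd1, the gene of cyclin D1, which is the D-type cyclin of many non-blood tissues, was at 0.327 to 2.09 CPM across the libraries. It was at 0.767, 1.07, 0.674, 1.82 and 1.13 CPM in WT and at 0.459, 0.575, 0.588, 0.744 and 1.46 CPM in DKO, and the groups overlapped (-0.49 ± 0.38, adjusted p = 0.319). In TX1 it was at 0.376, 0.456, 0.473 and 0.327 CPM. In TX2 the lowest, median and highest were 0.902, 1.12 and 2.09 CPM, all above TX1, with a difference of 1.64 ± 0.32 (log2, SE) that missed the threshold (adjusted p = 0.0672). Of all genes tested 3.93% had no overlap between TX2 and TX1. The exons of Ccnd1 share 1100 bases, 23.4% of their length, with those of LTO1 on the other strand, which was at 8.13 CPM in TX2 and 10.8 in TX1. Counting used no strand, and the gene-count layout of STAR sets aside reads that overlap exons of more than 1 gene. Reads of such shared stretches are therefore missing from the counts of both genes, and levels per kilobase can be too low.

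The make-up of the cyclin D pool followed these levels. Ccnd2 gave 67.4 ± 2.9% (SD, n = 5) of the summed CPM per kilobase of the 3 genes in WT and 66.8 ± 0.7% (SD, n = 5) in DKO, while the sum was 76.2 ± 4.9 in WT and 50.1 ± 5.9 in DKO. The shares of the groups lay within the spread of WT, while the sums did not overlap. In TX2 replicates 1 to 4 the sum was 169 ± 6 with a Ccnd2 share of 86.7 ± 0.5% (SD, n = 4). In replicates 5 to 7 it was 38.2 ± 9.3 with a share of 59.9 ± 4.5% (SD, n = 3). The sums of the TX1 libraries lay between, at 53.9 to 71.2. Their shares were 62.5 to 81.5%, and that of TX1 replicate 3, 62.5%, was inside the range of TX2 replicates 5 to 7 (54.8 to 62.8%).

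**Figure D3:**
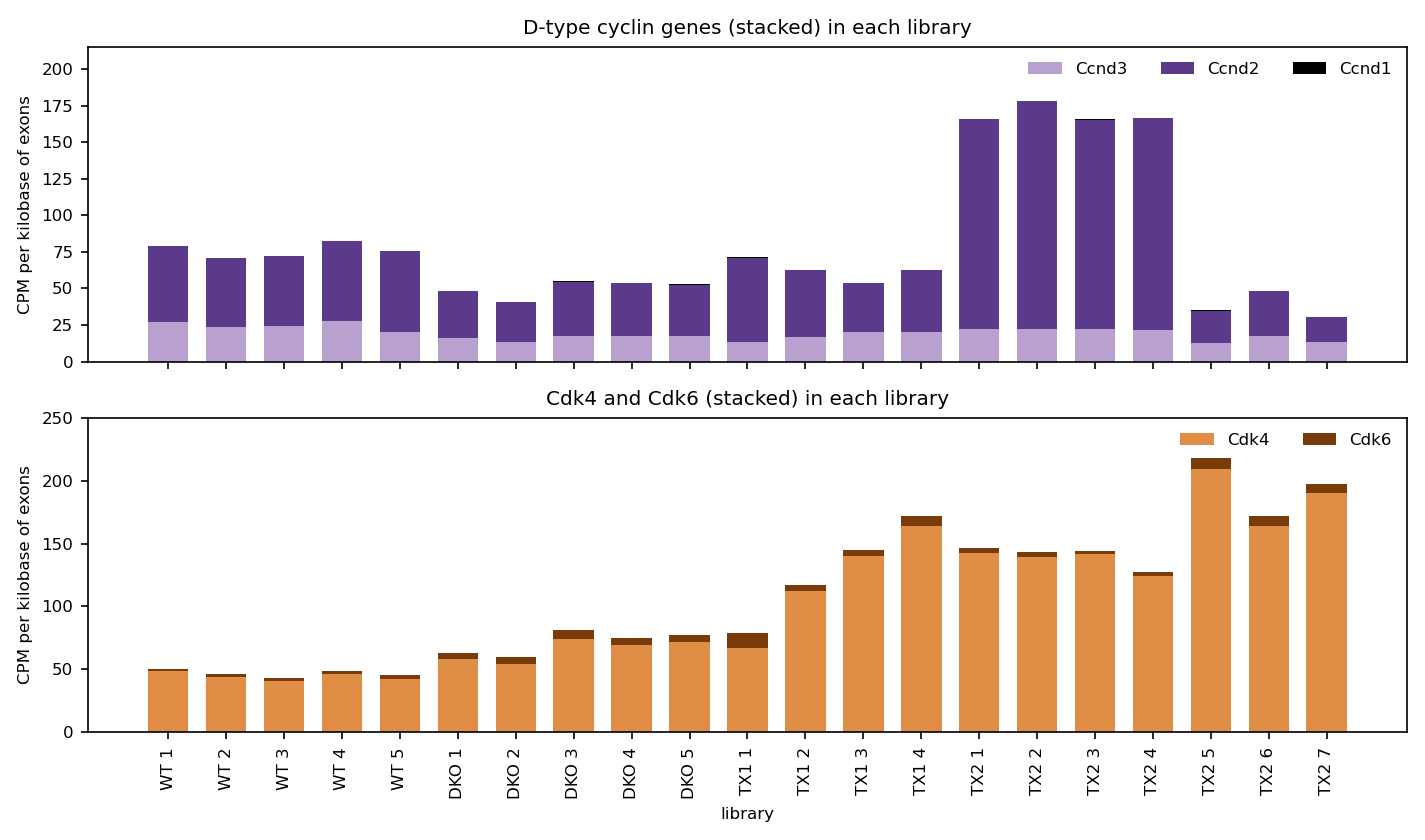
D-type cyclin genes (upper panel) and Cdk4 with Cdk6 (lower panel), stacked for each library in CPM per kilobase of exons on linear axes from 0. The cyclin D stack reaches 166 to 178 in TX2 replicates 1 to 4 and 30.7 to 48.6 in replicates 5 to 7, while the kinase stack exceeds 127 in all TX2 libraries.

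Cdk4, whose product is the kinase partner of the D-type cyclins in most cell types, rose at both steps. Its levels were 157, 144, 134, 151 and 139 CPM in WT and 189, 175, 242, 225 and 234 CPM in DKO, without overlap, a rise of 0.57 ± 0.10 (log2, SE; adjusted p = 0.00131). In TX1 it was at 218, 365, 456 and 533 CPM, and replicate 1 lay inside the DKO range. In TX2 the lowest, median and highest were 404, 463 and 680 CPM, all above DKO. It rose by 0.90 ± 0.24 in TX1 against DKO (adjusted p = 0.0320) and by 1.25 ± 0.14 in TX2 against DKO (adjusted p = 3.185e-05), a 2.38-fold change. Cdk4 shares 641 exon bases, 19.7% of its length, with Tspan31 on the other strand, which was at 11.3 to 16.7 CPM in WT, 26.9 to 40.1 in DKO, 3.53 to 27.7 in TX1 and 3.98 to 36.5 in TX2. The genes most like Cdk4 over the 21 libraries were Nudcd2 (r = 0.992), Shmt2 (0.989), a mitochondrial enzyme of serine metabolism, and Eif5a (0.989), a translation factor.

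The promoter of Cdk4, from RefSeq on GRCm38.p6, is shown because it held the most matches to the motifs searched among the member promoters. Capitals mark CACGTG, the E-box that MYC with MAX binds.
Cdk4 promoter, chr10:127063285-127063584, plus strand: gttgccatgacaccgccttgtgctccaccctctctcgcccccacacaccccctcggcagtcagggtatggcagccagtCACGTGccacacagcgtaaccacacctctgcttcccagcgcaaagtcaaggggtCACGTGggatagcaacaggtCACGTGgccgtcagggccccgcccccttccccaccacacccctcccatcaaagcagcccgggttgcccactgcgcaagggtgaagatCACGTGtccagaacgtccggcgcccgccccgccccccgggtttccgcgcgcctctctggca
The E-box starts at positions 79, 133, 153 and 240 of the window. At least 1 E-box was present in 7.15% of the 32851 promoter windows, and 4 or more in 8 windows (0.0244%). Promoters were found for 7 of the 10 members, in 10 windows. Cdk6 and the second Cdkn2c window held 1 E-box each, the Cdkn2b window the CRE TGACGTCA (in 1.79% of windows) and a Ccnd3 window the FOXO motif GTAAACA (3.65%). The E2F motifs TTTCGCGC (0.323%) and TTTGGCGC (0.514%) and the GAS motif TTCNNNGAA (8.30%) were searched on both strands and matched in no member window. A match is a description of letters, not of binding. Myc itself was at 137 ± 7 CPM in WT and 107 ± 29 in DKO (SD, n = 5 each), and was not called between them. It was at 352 ± 120 CPM in TX1 (SD, n = 4) and 285 ± 90 in TX2 (SD, n = 7). Myc rose in TX1 against DKO by 1.74 ± 0.30 (adjusted p = 0.00864) and in TX2 against DKO by 1.39 ± 0.26 (adjusted p = 0.000821). Cdk4 was higher in DKO than in WT, while mean Myc was not. A part of Myc in the Cdk4 levels was not tested.

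Cdk6, whose product is the cyclin D partner prominent in blood cells, was at 29.3, 25.9, 31.9, 28.3 and 40.4 CPM in WT and at 72.9, 87.3, 91.5, 74.5 and 73.9 CPM in DKO. The groups did not overlap, and Cdk6 rose by 1.38 ± 0.13 (log2, SE; adjusted p = 3.553e-05), a 2.61-fold change. In TX1 it was at 162, 69.9, 68.4 and 106 CPM. In TX2 the lowest, median and highest were 36.7, 56.8 and 122 CPM. Both overlapped DKO, with differences of 0.36 ± 0.25 (adjusted p = 0.342) and -0.10 ± 0.29 (adjusted p = 0.797). In TX2 replicates 1 to 4, at 36.7 to 56.8 CPM, all libraries lay below DKO, and in replicates 5 to 7, at 106 to 122 CPM, all lay above it. Taken alone against DKO, the former differed by -0.74 ± 0.14 (adjusted p = 0.00160) and the latter by 0.53 ± 0.11 (adjusted p = 0.00360). This split was chosen after the data were seen. These p-values compare libraries of a single clone, which are not independent of each other, with DKO. TX1 replicate 3, of the same receptor as TX2 replicates 5 to 7, was at 68.4 CPM. Cdk4 exceeded Cdk6 per kilobase in every library. The ratio of Cdk6 to Cdk4 was 0.0503 ± 0.0111 in WT, 0.0887 ± 0.0166 in DKO (SD, n = 5 each) and 0.0330 ± 0.0104 in TX2 (SD, n = 7). In TX1 it was 0.0744 ± 0.0653 (SD, n = 4), with replicate 1 at 0.172, the highest of the series. It was 0.0254 ± 0.0047 in TX2 replicates 1 to 4 and 0.0432 ± 0.0041 in replicates 5 to 7 (SD, n = 4 and n = 3).

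Rb1, whose product holds E2F factors until cyclin D kinases phosphorylate it, was at 83.4, 86.3, 92.0, 91.9 and 156 CPM in WT and at 89.3, 82.5, 74.5, 96.4 and 100 CPM in DKO. The groups overlapped (-0.18 ± 0.17, adjusted p = 0.412). In TX1 it was at 50.6, 98.9, 40.9 and 42.9 CPM, so that replicate 2 lay in the DKO range (-0.59 ± 0.26, adjusted p = 0.144). In TX2 the lowest, median and highest were 25.7, 46.0 and 48.1 CPM, all below DKO, and Rb1 fell by 1.15 ± 0.17 (log2, SE; adjusted p = 0.000192). Zfand6 (r = 0.926), Plekha3 (0.926) and Itm2b (0.922), which lies on the same chromosome, had the levels most like those of Rb1. Rcbtb2 and Lpar6 share 8.11 and 6.78% of the exon bases of Rb1 on the other strand, and reads there are missing from its count in the same way.

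**Figure D4:**
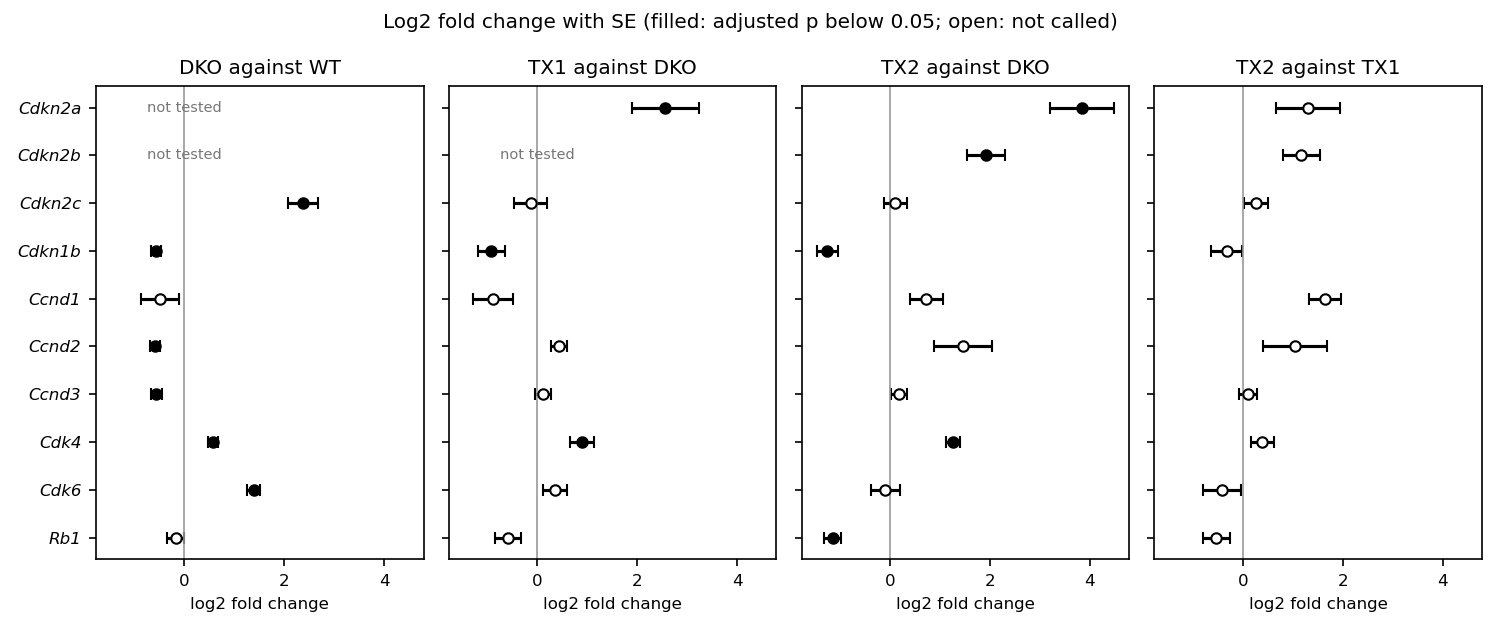
Log2 fold change of each member in the 4 comparisons with its SE; filled points have an adjusted p under 0.05, and members that failed the filter on low counts are marked as not tested. Cdk4 is higher and Cdkn1b lower in DKO against WT and in both comparisons of transferred cells with DKO.

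The clones of TX2 differed in more members than Ccnd2 and Cdk6. Of the 9 members with a mean of at least 1 CPM in TX2, 7 had no overlap between replicates 1 to 4 and replicates 5 to 7, where 53.1% of 11798 genes had none. Mean Cdkn2a was 15.8 ± 6.1 CPM in replicates 1 to 4 and 6.11 ± 3.60 in replicates 5 to 7, and mean Cdkn1b was 86.8 ± 3.6 and 50.3 ± 16.7 CPM (SD, n = 4 and n = 3). Cdk4 was the lower in replicates 1 to 4, at 445 ± 28 against 609 ± 74 CPM. Mean Rb1 was 46.8 ± 0.9 and 32.4 ± 9.6 CPM. Cdkn2c and Ccnd1 overlapped. Against DKO, both sets of TX2 libraries taken alone kept Cdkn2a (4.28 ± 0.50 and 2.97 ± 0.65) and Cdk4 (1.04 ± 0.10 and 1.55 ± 0.13) higher, and Cdkn1b (-0.98 ± 0.08 and -1.71 ± 0.20) and Rb1 (-0.94 ± 0.10 and -1.42 ± 0.19) lower, with adjusted p of 0.00544 or less. As for Ccnd2, these p-values compare libraries of a single clone with DKO and measure no spread between clones. With the libraries of each clone summed, so that TX2 counted as 2 samples, the same 5 members remained called, with adjusted p from 0.00411 for Cdk4 to 0.0263 for Cdkn2b.

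TX1 replicate 3 and TX2 replicates 5 to 7 carried the same receptor. The labels do not say which TX1 cells were passed on to which recipients, so the receptor is the only link between them. In TX1 replicate 3 Cdkn2a was at 5.94, Cdkn1b at 62.4 and Rb1 at 40.9 CPM, each inside the range of the TX2 libraries of that clone. Cdk6, at 68.4 CPM, was 1.65-fold higher in the mean of these TX2 libraries. Ccnd1 was 3.30-fold and Cdkn2b 3.94-fold higher there, from 0.473 and 0.135 CPM, where Cdkn2b had 4 reads in TX1 replicate 3. Ccnd2, at 317 CPM, was above all 3 TX2 libraries. With 1 TX1 library of this receptor there is no replicate check of these differences.

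The 6 calls in DKO against WT held with each library left out, whereas those in TX1 against DKO did not. The labels name no batch, but reads that mapped to several places split libraries within groups, with 7.61 to 7.80% in WT replicates 1 to 3 against 8.40 and 10.02% in replicates 4 and 5, and 6.97 to 7.00% in DKO replicates 1 to 3 against 8.04 and 8.05% in the replicates labelled young. TX1 replicate 4 was at 8.29%, above the other TX1 libraries. In WT and DKO replicates 1 to 3 alone, all 6 members called in DKO against WT were called again. The differences were 2.28 for Cdkn2c, 0.51 for Cdk4, 1.56 for Cdk6, -0.49 for Cdkn1b, -0.58 for Ccnd2 and -0.64 for Ccnd3. In replicates 4 and 5 alone they were 2.52, 0.69, 1.14, -0.67, -0.59 and -0.43, and Ccnd3 was no longer called (adjusted p = 0.139). In TX1 against DKO, replicates 1 to 3 alone gave 2.68 for Cdkn2a, 0.78 for Cdk4 and -0.75 for Cdkn1b, with 0 of the members called. Only DKO replicates 4 and 5 and TX1 replicate 4 were left in the other split, and it gave 2.89, 1.26 and -1.44. With a single TX1 library that arm has no spread of its own, so its calls are not read here. The Cdk4 and Cdkn1b calls were lost on leaving out any of the 9 libraries other than TX1 replicate 1, with adjusted p up to 0.0876 and 0.110. That of Cdkn2a was lost without DKO replicate 1, 2, 3 or 4 or TX1 replicate 3 or 4, with adjusted p up to 0.0759. All 3 were lost without the DKO libraries labelled young and among male libraries alone.

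The other genes of the pathway were taken from 11 lists of 78 genes. Of 20 E2F target genes, 18 were higher in DKO than in WT and 0 lower, with a median log2 fold change of 1.80. Over all genes 22.7% were higher, and the median was -0.01. Among the higher targets were Mcm6, a subunit of the replicative helicase (1.51 ± 0.13, SE; adjusted p = 1.884e-05), Uhrf1, which recruits maintenance DNA methylation (2.57 ± 0.29, adjusted p = 9.527e-05), and the replication licensing gene Cdc6 (2.49 ± 0.31, adjusted p = 0.000152). Of 10 E2F and DP factors 8 were higher, such as E2f1 (2.13 ± 0.22, adjusted p = 5.46e-05). In TX2 against DKO 17 of the 20 targets were higher again, with a median of 1.03, where 25.6% of all genes were higher. In TX1 against DKO 4 of the 20 were higher, with a median of 0.77, where 11.7% of all genes were higher. E2f2 was lower in TX2 than in DKO (-0.79 ± 0.16, adjusted p = 0.00121). The summed dividing-cell markers given beside Cdkn2c averaged 116 CPM in WT, 720 in DKO, 657 in TX1 and 997 in TX2. Their mean was thus higher in DKO than in WT and in TX2 than in DKO, but not in TX1 than in DKO. The part of these markers was not tested.

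Cyclin E and its kinase act after the D-type cyclins. Ccne1 rose in DKO against WT by 1.56 ± 0.19 (SE; adjusted p = 0.000155) and in TX2 against DKO by 1.05 ± 0.19 (adjusted p = 0.000868). All 4 genes of the list of cyclin E, CDK2 and CDC25A were higher in TX2 against DKO, beside 25.6% of all genes. Among 7 tested genes of p27 turnover, 2 were higher in DKO against WT, and 4 higher and 2 lower in TX2 against DKO, beside 22.7% of all genes higher in the former and 25.6% higher and 26.1% lower in the latter. In TX1 against DKO 0 were higher and 1 was lower, beside 11.7 and 7.97% of all genes. Skp2, which marks p27 for destruction, rose in TX2 against DKO by 1.81 ± 0.25 (adjusted p = 0.000131), and its cofactor Cks1b rose by 1.32 ± 0.23 (adjusted p = 0.000550). In DKO against WT they rose by 0.79 ± 0.29 (adjusted p = 0.0488) and 2.28 ± 0.28 (adjusted p = 0.000145). Rnf123, a ubiquitin ligase for p27 in the cytoplasm, fell in TX2 by 0.80 ± 0.13 (adjusted p = 0.000416). Foxo1, whose product activates Cdkn1b transcription in resting T cells, fell in DKO against WT by 1.35 ± 0.22 (adjusted p = 0.000703), in TX1 against DKO by 1.46 ± 0.33 (adjusted p = 0.0186) and in TX2 against DKO by 1.43 ± 0.27 (adjusted p = 0.000898). Foxo3 also fell in DKO against WT (-1.15 ± 0.18, adjusted p = 0.000535) but was not called in TX1 or TX2 against DKO. Of the 8 listed regulators of cyclin D and p27 transcription, 1 was higher and 3 lower in DKO against WT, beside 22.7 and 20.7% of all genes. In TX1 against DKO 1 was higher and 2 lower (11.7 and 7.97%), and in TX2 against DKO 3 and 2 (25.6 and 26.1%). The part of any gene of this paragraph in the Cdkn1b levels was not tested.

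Of the 3 other CDK inhibitor genes, Cdkn1a, the p53 target that encodes p21, rose in DKO against WT (2.07 ± 0.62, adjusted p = 0.0198), from 1.05 ± 0.31 to 4.33 ± 4.82 CPM (SD, n = 5 each). The lowest, median and highest DKO library were at 1.09, 2.14 and 12.8 CPM, the lowest within the WT range. Without DKO replicate 2, the highest, the difference was 1.11 ± 0.36 (adjusted p = 0.0300). Cdkn1a was not called in TX1 or TX2 against DKO with all libraries. Without DKO replicate 2 it was higher in both, by 1.78 ± 0.49 (adjusted p = 0.039) and 2.22 ± 0.49 (adjusted p = 0.00346). With any other library left out it was called in neither. Cdkn2d, the remaining INK4 gene, fell in TX1 against DKO by 1.59 ± 0.32 (adjusted p = 0.0131) and in TX2 against DKO by 0.88 ± 0.30 (adjusted p = 0.0255). It went from 99.5 ± 14.6 CPM in DKO (SD, n = 5) to 32.8 ± 17.7 in TX1 (SD, n = 4) and 54.7 ± 23.5 in TX2 (SD, n = 7), while Cdkn2a was higher in both. Cdkn1c, the gene of p57, rose in TX2 against DKO by 2.47 ± 0.67 (adjusted p = 0.00893), from 0.894 ± 0.316 to 5.05 ± 4.51 CPM. Its lowest, median and highest TX2 library were at 0.791, 3.57 and 12.7 CPM, the lowest within the DKO range. Of the 4 genes between ARF and p53, Trp53 rose in TX2 against DKO by 0.79 ± 0.08 (adjusted p = 1.793e-05) and Npm1, an ARF binding partner, by 0.81 ± 0.18 (adjusted p = 0.00264), while Mdm2 fell by 0.41 ± 0.10 (adjusted p = 0.00361) and Mdm4 by 1.17 ± 0.16 (adjusted p = 0.000133). Of 5 genes of the CDK-activating kinase and the kinase chaperone, 3 were higher in TX2 against DKO, beside 25.6% of all genes. Hsp90ab1, of this list, rose by 1.31 ± 0.11 (adjusted p = 6.266e-06). Rbl1 and Rbl2, the other pocket protein genes, were called in none of the 4 comparisons. In TX2 against TX1 no gene of the 11 lists was called, beside 0.0431% of all genes.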

How the data were processed

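Bulk RNA-seq of 21 mouse spleen T cell libraries was analysed from counts of reads per Ensembl gene, deposited in the gene-count layout of STAR. Tools listed per the submitters' processing notes, with no settings, were STAR 2.7.5a, fastp 0.21.0 and DESeq2, and the build was mm10 (GRCm38). Of the reads in both strand columns a median share of 0.507 was in the larger, so the column without strand was used. Lines that name no gene held 16.8 to 23.4% of reads and were left out. Symbols and coordinates came from GENCODE M21, which matched 55227 of 55487 identifiers. Deposited clonotype tables, counts of reads per receptor sequence, gave the clones.

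For each comparison, only its own libraries entered edgeR 4.0.16 (in R 4.3.3), with TMM, filterByExpr and the robust two-sided quasi-likelihood test and Benjamini-Hochberg adjustment over all genes tested. Levels are CPM with TMM factors over all libraries. Members that failed the filter were compared by exact two-sided permutation of CPM. The test was checked on simulated data. All 10 members are described in every comparison. From each pathway list the rule names at most the 4 called genes of smallest adjusted p, of which some are printed, and for each member the 3 genes of most similar log2(CPM + 1), printed for Cdkn2c, Cdkn1b, Cdk4 and Rb1. Members and lists were chosen with earlier results of these data known. The listed symbol Skp1 matched no gene in the annotation and was not used here. Libraries of a group differed by a chi-square per gene of 6.50 or more, so none was counted as the same library read again. The lowest value was that of TX2 replicates 1 and 2. This check cannot tell whether libraries came from the same animal. Floors and read counts cover counting error only.

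The alternatives tried used DESeq2 1.42.0, RLE size factors, no filter, 1 fit of all groups, replicate number as a block, sex as covariate, males, replicates 1 to 3 of WT, DKO and TX1 or the other libraries alone (a split taken from earlier results of these data, not named in the labels; multimapping shares differ along it within WT, DKO and TX1, while TX2, all in the second set, runs from 7.68 to 9.60%), DKO labelled young left out, libraries of a clone summed, and each library left out. CPM with no TMM factors and each TX2 clone alone, Cdkn2d in the INK4 sum and the libraries left out for Cdkn1a were added after seeing the data.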

Additional observations from a re-analysis of the deposited data

Results flagged for a closer look

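In 4 of the 40 sets of a member in a group, a single library stood far from the others, where chance alone gives about 1 in 20. Cdkn1b in TX1 replicate 1 was at 153.8 CPM, with the next library at 73.26. That library also held Cd4 at 1025 CPM, unlike the other TX1 libraries, and the lowest Cdkn2a and Cdk4 of TX1. Ccnd1 in DKO replicate 5 was at 1.457 CPM, with the next at 0.7445. Rb1 in WT replicate 5 was at 155.5 CPM, with the next at 92.0, and Rb1 in TX1 replicate 2 was at 98.88 CPM, with the next at 50.57. WT replicate 5 also had the highest share of multimapping reads, 10.02%. The part of these in the results was not tested.

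Cdk6 moved in opposite directions in the clones of TX2. It averaged 48.52 CPM in replicates 1 to 4, all below DKO, and 112.7 CPM in replicates 5 to 7, all above DKO. The difference itself was not tested, and clone and sex cannot be told apart there. Markers of B cells, neutrophils, macrophages and red cells were also higher in replicates 5 to 7.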

How the results depend on the processing

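In DKO against WT the members called stayed at 6 with each library left out, and numbered 4 to 7 under all other alternatives. With 1 fit of all groups Cdkn1b and Ccnd2 missed the threshold (adjusted p = 0.0844 and 0.360). Genes called fell from 5951 to 3829 in replicates 1 to 3 and 3217 in replicates 4 and 5, where fewer samples enter. Rb1, not called, ran from -0.2501 to 0.0171 with a library left out, turning without WT replicate 5.

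In TX1 against DKO the count of members called fell from 3 to 0 among male libraries, in replicates 1 to 3 and without the DKO labelled young, and was 9 with DKO replicates 4 and 5 against TX1 replicate 4, a lone library assumed to vary like DKO. Genes called went from 2743 to 1413, 0, 3 and 8962 in these settings. With a library left out, members called ran from 0 to 3 and genes from 1326 to 5399, the highest without TX1 replicate 1. Uncalled members turned direction: Ccnd3 among males (-0.0099) and Cdkn2c with TX1 replicate 4 alone (0.3822) and over single libraries left out (-0.4174 to 0.0214). The cause was not tested.

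In TX2 against DKO 5 to 7 members were called under every alternative run. Ccnd2 passed the threshold as a rise in 7 of the 13 alternatives run, leaving out a library aside, DESeq2 among them (adjusted p = 0.0116). The 7 include TX2 replicates 1 to 4 alone and the replicate block, which leave out some or all of TX2 replicates 5 to 7. Genes called fell from 7255 to 4334 against DKO replicates 4 and 5 and 4555 with clones summed, where fewer samples enter. Cdk6 turned to 0.0111 and 0.0467 in these settings and ran from -0.2383 to 0.0356 with a library left out, and Cdkn2c turned to -0.0236 against DKO replicates 4 and 5 and ran from -0.0686 to 0.2525. With TX2 replicates 5 to 7 alone Ccnd2, Ccnd3 and Cdk6 turned to -0.51, -0.12 and 0.53.

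In TX2 against TX1 the 6 genes called, 3 higher and 3 lower, became 1362 with DESeq2, 16 (6 higher, 10 lower) with no TMM factors, 13 with no filter, 1422 with all groups in 1 fit, 664 with sex as covariate, 839 among males, 0 with clones summed, and 1496 and 183 with TX2 replicates 1 to 4 and 5 to 7 alone. Members called became 1, 1, 1, 2 and 2 with DESeq2, all groups in 1 fit, sex, males and TX2 replicates 1 to 4. With a library left out, genes ran from 0 to 1318, the highest without TX1 replicate 4, and members from 0 to 1. Directions turned against TX1 replicate 4 alone for Cdkn2c (-0.3334), Cdkn1b (0.1878), Ccnd3 (-0.0768) and Cdk4 (-0.0406), with TX2 replicates 5 to 7 alone for Ccnd2 (-0.95), Ccnd3 (-0.24) and Cdk6 (0.16), and for Cdkn1b over libraries left out (-0.47 to 0.13).

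The correlations of the deviations of same-numbered libraries ran from -0.21 to 0.37 and did not pass 0.1 in every pair of any comparison, so the numbers were not taken as pairs. The replicate block used only replicate numbers present in both groups. It left out DKO replicate 5 in TX1 against DKO and TX2 replicates 6 and 7 in TX2 against DKO. In TX2 against TX1 it left out TX2 replicates 5 to 7, so the block and the loss of a clone cannot be told apart there. With the replicate block, TX1 against DKO called 70 genes and 0 members, TX2 against TX1 called 563 genes and 2 members (Cdkn2a and Ccnd2) with Cdkn1b at 0.11, and the block changed no call in DKO against WT, where 6 members were called. In TX2 against DKO it called 5967 genes and 5 members, with Ccnd2 among them, and Cdkn2b was not tested. The median log2 fold change over all genes moved by under 0.1 with each scaling. Depth limits Cdkn2a in WT and DKO and Cdkn2b in every group.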
